A study of Homo sapiens with 33 samples.

Results

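The 10 genes described here, ALDH1A1, ALDH1A2, ALDH1A3, ALDH1B1, ALDH1L1, ALDH2, ALDH3A1, ALDH3A2, ALDH3B1 and ALDH7A1, encode aldehyde dehydrogenases. They were chosen by symbol and not by a cutoff on their measured levels, although earlier results of these data were known. They are 10 of the 29744 genes in the tables. The question asked of them was which isozyme dominated in each ovarian cancer line and how it differed between platinum-resistant lines and their sensitive counterparts.

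Aldehyde dehydrogenases oxidise reactive aldehydes to carboxylic acids, with NAD or NADP as the cofactor. The ALDH1A enzymes make retinoic acid, the ligand of the nuclear retinoic acid receptors, from retinaldehyde, whereas other members clear aldehydes that arise from ethanol, membrane lipids, amino acids or folate metabolism. Aldehyde dehydrogenase activity is a common way to sort stem-like cells from ovarian and other carcinomas, and the substrate used for this can be oxidised by more than 1 isozyme.

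The promoters of 3 members are shown because these genes behaved differently from one another across the lines. Line means of ALDH1A1 ran from 0 to 65.5 TPM (transcript abundance scaled by length and library size), those of ALDH1A3 spanned 18135-fold, and those of ALDH7A1 spanned 3.53-fold. Each sequence is the 250 bases before the annotated start in RefSeq (GRCh38.p14), written 5′ to 3′ on the strand of the gene, with capitals marking every match on either strand to TATAAA (the TATA box), CCAAT (the CCAAT box), GGGCGG (the GC box) or TGACNNNGC (the core of the antioxidant response element). ALDH1A1 (chr9:72953054-72953303, minus strand), ALDH1A3 (chr15:100879581-100879830, plus strand) and ALDH7A1 (chr5:126595220-126595469, minus strand) read as follows.
ALDH1A1: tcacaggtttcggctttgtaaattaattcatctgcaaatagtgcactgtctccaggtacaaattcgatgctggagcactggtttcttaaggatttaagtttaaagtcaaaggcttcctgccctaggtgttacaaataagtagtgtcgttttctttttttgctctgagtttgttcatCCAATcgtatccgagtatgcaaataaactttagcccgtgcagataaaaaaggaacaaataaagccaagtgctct
ALDH1A3: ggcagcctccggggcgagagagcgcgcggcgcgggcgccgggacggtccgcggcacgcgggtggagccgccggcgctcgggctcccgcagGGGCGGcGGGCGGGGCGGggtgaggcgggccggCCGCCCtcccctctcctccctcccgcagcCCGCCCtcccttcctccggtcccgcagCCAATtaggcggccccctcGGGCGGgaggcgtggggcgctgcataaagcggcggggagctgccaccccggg
ALDH7A1: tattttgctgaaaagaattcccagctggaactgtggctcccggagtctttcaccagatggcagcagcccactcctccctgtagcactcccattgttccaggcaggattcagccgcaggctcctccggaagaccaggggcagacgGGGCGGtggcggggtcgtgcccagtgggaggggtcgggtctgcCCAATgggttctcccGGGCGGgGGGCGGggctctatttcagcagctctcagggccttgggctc

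The ALDH1A3 promoter held 38 CpG dinucleotides at 82.4% GC, and 96.7% of the 35116 promoters of the same length held fewer. The ALDH1A1 promoter held 6 CpG at 38.4% GC, with 38.1% of promoters below it, and that of ALDH7A1 held 11, the median of all promoters. Matches to GGGCGG numbered 6 before ALDH1A3, 3 before ALDH7A1 and 0 before ALDH1A1, and 42.6% of all promoters held at least 1. Each of the 3 promoters held 1 CCAAT match, as 11240 of the 35116 promoters held at least 1. None held TATAAA (10.7% of promoters) or TGACNNNGC (10.9%). These matches describe the letters in the window only. Of the 10 members, 8 had a promoter entry.

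RNA was sequenced from 33 libraries of 11 human high grade serous ovarian cancer lines, 3 replicates a line, in 4 families that each share an origin. OVCAR3 and OVCAR4 were set beside OVCAR3 ResA and OVCAR3 ResB, and OVCAR4 ResA and OVCAR4 ResB, 2 independent resistant lines each that the study raised over months of repeated cisplatin pulses with recovery between them and then kept out of the drug. PEA1 and PEA2, and PEO1, PEO4 and PEO6, are lines set up from the disease of a single patient each, so platinum exposure and other differences between the samples of that patient cannot be told apart. OVCAR3, OVCAR4, PEA1 and PEO1 were the platinum-sensitive lines and the remaining 7 the resistant ones, roles that come from the text of the paper and not from the sample labels. The parental lines stood as the only controls of the derived lines, and the labels do not state whether replicates were separate cultures, so p-values measure the spread between these samples, which may be technical.

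Libraries held 18058985 to 43394009 counts. The labelled identity was checked with markers: PAX8, a transcription factor of Müllerian epithelium, was present in all 33 libraries, with line means from 30.1 to 203 TPM. Other markers of serous epithelium were low in some lines. Line means of WT1 ran from 0.645 TPM in OVCAR4 ResB to 128 TPM in PEO4, and only 4 lines reached 10 TPM. Those of MUC16 ran from 0.0696 TPM in PEA1 to 126 TPM in PEO6, and 8 lines reached 10 TPM. PEA1 stood apart from the others in epithelial markers, with 12.6 to 14.8 TPM of EPCAM and a mean of 2.95 TPM of KRT7, against means of at least 529.9 and 261 TPM in every other line. One library also stood apart. In OVCAR4 ResA replicate 1, all 17 genes that were above 100 TPM in PEO1 and below 0.5 TPM in the other 2 OVCAR4 ResA libraries were above 1 TPM, at a median of 3.75% of their PEO1 level. The same rule gave 14 of 14 genes at a median of 4.32% for PEO4, 12 of 18 at 1.58% for PEO6 and 4 of 6 at 3.24% for OVCAR3 ResA. It gave 4 of 11 at 0.0615% for PEA2 and 1 of 6 at 0.0380% for PEA1. The line or lines that these transcripts came from were not tested. The highest such median in the other 32 libraries, over sets of at least 5 genes, was 0.613%. ALDH1A3 in that library stood at 2.99% of its PEO1 mean, and values without this library are given beside many of the results it touches. The counts of changed members pooled over the pairs, the counts of groups without overlap and the likeness of genes over lines include it.

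Levels are given in TPM, which is scaled by transcript length, so that different genes can be set side by side. Of the summed TPM of the 10 members, 6 different genes held the largest share in at least 1 line. ALDH1A3 led in 3 lines (PEA2, PEO1 and PEO4), ALDH2 in 3 (OVCAR4, OVCAR4 ResA and OVCAR4 ResB), ALDH1A1 in 2 (OVCAR3 and OVCAR3 ResA), and ALDH1B1, ALDH3B1 and ALDH7A1 in 1 each (PEA1, PEO6 and OVCAR3 ResB). The leader of the line was also the top member of the single library in 32 of 33 libraries. In bulk RNA, more cells expressing a gene and more RNA per cell cannot be told apart.

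The hold of the leader differed widely between lines. In PEO1, ALDH1A3 took 89.8% ± 1.44 (SD, n = 3) of the summed TPM and the next member, ALDH1B1, 3.09%. In PEA2, ALDH1A3 took 80.5% ± 1.19 and the next member, ALDH3A2, 4.56%. In PEA1, ALDH1B1 took 61.4% ± 7.66, ahead of ALDH7A1 with 14.1%. In these 3 lines a single gene held most of the summed TPM of the 10 members. With all 19 ALDH genes of the tables in the sum, the share of ALDH1B1 in PEA1 was 45.8%, and those of ALDH1A3 were 82.9% in PEO1 and 69.9% in PEA2.

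No member held most of this sum in the remaining 8 lines. ALDH2 held 42.7% ± 7.13 in OVCAR4, ahead of ALDH3A2 with 23.3%, and 35.1% ± 7.95 in OVCAR4 ResB, ahead of ALDH1B1 with 21.2%. ALDH3B1 held 40.6% ± 6.68 in PEO6, ahead of ALDH7A1 with 18.3%, and ALDH1A3 held 30.3% ± 6.06 in PEO4, ahead of ALDH3B1 with 18.4%. In OVCAR3 ResB, ALDH7A1 held 37.8% ± 1.27, ahead of ALDH3B1 with 19.0%, whereas in OVCAR3 ALDH1A1 led ALDH7A1 by 27.6% ± 2.80 to 24.0%. In OVCAR3 ResA ALDH1A1 held 33.9% ± 5.28 and ALDH7A1 26.0%, and in OVCAR4 ResA ALDH2 held 32.3% ± 4.38 and ALDH3A2 22.4%. The shares of the first and second member did not overlap between libraries in 9 of 11 lines, the exceptions being OVCAR3 and OVCAR4 ResA. In TPM the levels of the leader and the next member also stayed apart in 9 lines, with OVCAR3 ResA and OVCAR4 ResA as the exceptions. Without OVCAR4 ResA replicate 1, the share of ALDH2 in OVCAR4 ResA was 30.3%.

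**Figure D1:**
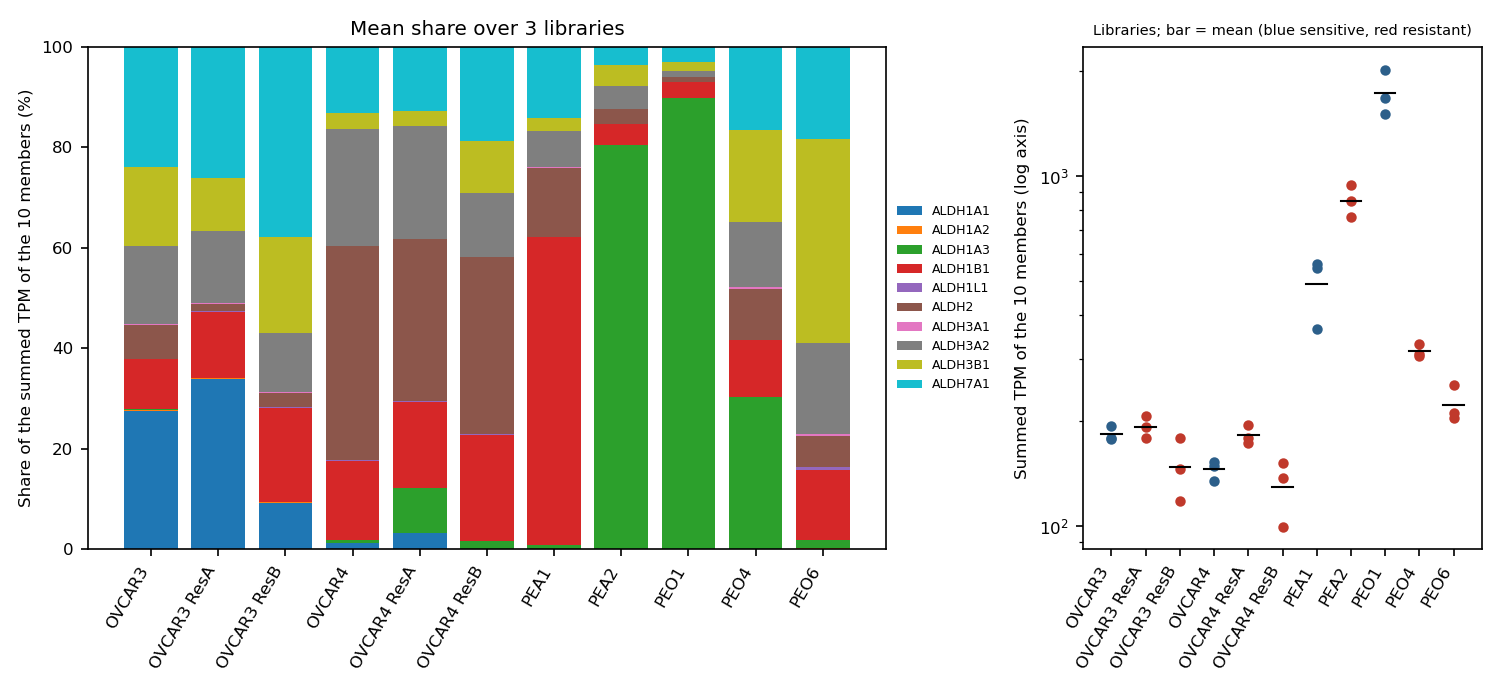
Left, mean share of each of the 10 aldehyde dehydrogenase genes in their summed TPM (percent, 3 libraries a line), as stacked bars for the 11 lines; right, the summed TPM of the 10 genes in each library on a log axis, where points are libraries, bars are line means and colours mark sensitive (blue) and resistant (red) lines. ALDH1A3 fills 89.8% of the PEO1 bar and 80.5% of the PEA2 bar, and ALDH1B1 fills 61.4% of the PEA1 bar, whereas the highest share in the OVCAR3 and OVCAR4 families is 42.7%, that of ALDH2 in OVCAR4.

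Each resistant line was next compared with its sensitive counterpart in DESeq2 (Wald test, replicate number as a block, Benjamini-Hochberg adjustment over all genes), and a gene is described as changed where its adjusted p was below 0.05. Over the 7 pairs, 28 of 64 tested combinations of a member and a pair changed, 13 higher and 15 lower in the resistant line, and another 6 combinations had too few counts for an adjusted p. The background over all genes was 29.8% of combinations, 15% higher and 14.8% lower. The median log2 change of the 10 members ran from -0.70 in OVCAR3 ResB to 0.52 in PEO4, against medians over all genes from -0.02 to 0.02. The 2 groups of 3 libraries did not overlap in 43 of 70 combinations, against 34.9% of combinations over all genes. The 4 OVCAR pairs share 2 sets of parental libraries and both PEO pairs share PEO1, so the pairs are not independent of each other.

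The count of changed members ran from 1 to 8 a pair. In PEO4 8 members changed (5 higher, 3 lower, background 33.3%), in PEO6 5 (3 higher, 2 lower, 41.4%), in PEA2 5 (2 higher, 3 lower, 47%) and in OVCAR3 ResA 4 (2 higher, 2 lower, 44.9%). In OVCAR4 ResB 3 members changed (0 higher, 3 lower, 17.9%), in OVCAR3 ResB 2 (0 higher, 2 lower, 7.67%), and in OVCAR4 ResA 1 (1 higher, 0 lower, 11.9%). Without OVCAR4 ResA replicate 1, 2 members changed in that pair, both lower (ALDH2 and ALDH3B1), and the background was 42.5%. No member changed in the same direction in every pair. Over the 7 pairs, ALDH2 changed most often, lower in 4 and higher in 1. ALDH1A1 was lower in 3 and higher in 0, ALDH3B1 higher in 3 and lower in 1, ALDH1B1 lower in 3 and higher in 1, and ALDH1A3 higher in 2 and lower in 2. These tallies include OVCAR4 ResA replicate 1. Without it the higher call of ALDH1A3 in OVCAR4 ResA was lost (DESeq2 adjusted p = 0.253), and ALDH2 and ALDH3B1 each gained a lower call in that pair.

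**Figure D2:**
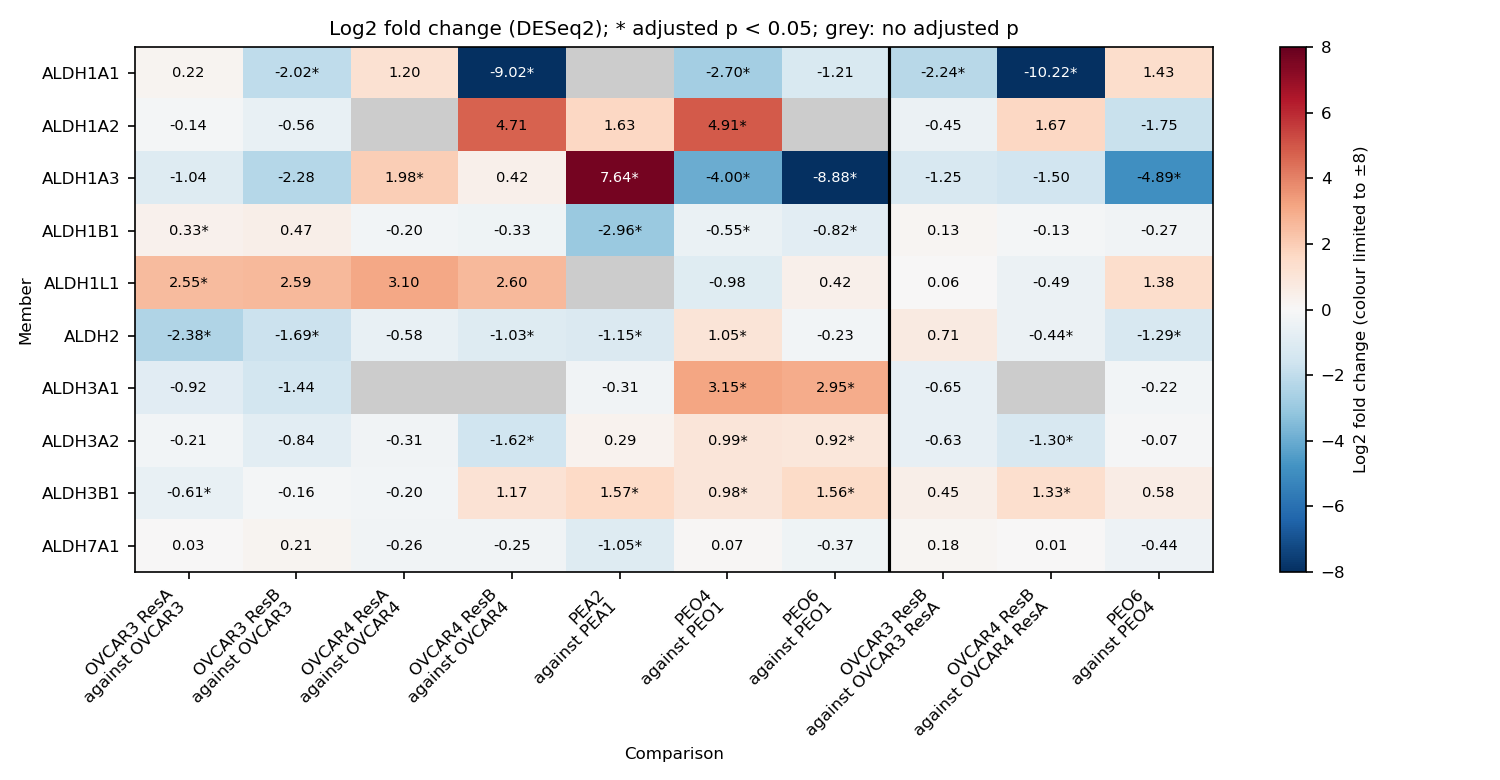
Heat map of DESeq2 log2 fold changes of the 10 genes (rows) in the 7 comparisons of a resistant with its sensitive line and the 3 comparisons between resistant lines of one family (columns). Red is higher and blue lower in the line named first, the colour scale ends at 8 in either direction, an asterisk marks an adjusted p below 0.05 and grey marks no adjusted p; ALDH1A3 is among the darkest cells of the PEA2 and PEO6 columns, in opposite directions.

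Among the retinaldehyde dehydrogenases, ALDH1A3 (chromosome 15, 100879831 to 100916626, RefSeq GRCh38.p14), whose promoter is the GC-rich one shown above, spanned 18135-fold between its highest and lowest line mean. In PEO1 it was measured at 1489, 1343 and 1839.9 TPM. The PEO4 libraries held 90.7, 81.5 and 114 TPM, and the PEO6 libraries 2.60, 2.07 and 6.70 TPM. The 3 lines formed 3 levels that did not overlap, highest in the sensitive line. ALDH1A3 was 16.0-fold lower in PEO4 than in PEO1 (log2 change -4.00 ± 0.17 SE, DESeq2 adjusted p = 4.1e-123) and 471-fold lower in PEO6 than in PEO1 (-8.88 ± 0.27, DESeq2 adjusted p = 6.0e-237). The 2 resistant lines also differed from each other, PEO6 being 29.6-fold below PEO4 (-4.89 ± 0.31, DESeq2 adjusted p = 9.4e-54).

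The other patient-derived pair went the opposite way. PEA1 held 4.31, 3.31 and 3.62 TPM of ALDH1A3 and PEA2 held 767, 687 and 603 TPM. All PEA2 libraries lay far above all PEA1 libraries, by 199-fold (log2 change 7.64 ± 0.22 SE, DESeq2 adjusted p = 2.2e-260). Epithelial markers moved with this pair: 6 of 8 were higher in all PEA2 libraries than in all PEA1 libraries and 0 were lower, with a summed level of 3642 to 3875 TPM in PEA2 and 405 to 447 TPM in PEA1. Of the 5 fibroblast markers, 1 was higher and 2 were lower without overlap in PEA2, their summed level was 0.665 to 1.16 TPM in PEA2 and 66.1 to 106 TPM in PEA1, and DCN was at 0 in both lines. Of the 3 leukocyte markers, 2 were higher without overlap in PEA2, with a summed level of 52.0 to 54.7 TPM against 10.1 to 23.2 TPM in PEA1, whereas CD3E was at 0 in both lines and PTPRC at 0 in PEA1. All 3 endothelial markers were higher without overlap, with a summed level of 5.68 to 8.76 TPM in PEA2 and 0.0132 to 0.109 TPM in PEA1, where CDH5 was at 0. The part of these differences in the ALDH results was not tested.

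In the OVCAR families ALDH1A3 was low. OVCAR4 held 1.31, 0.773 and 0.893 TPM and OVCAR4 ResA 46.6, 2.09 and 2.59 TPM, the first of which is the library that stood apart. The gene passed the test with that library (log2 change 1.98 ± 0.70 SE, DESeq2 adjusted p = 0.0421) and not without it (0.73 ± 0.51, DESeq2 adjusted p = 0.253). OVCAR4 ResB held 1.60, 1.82 and 2.39 TPM (adjusted p = 0.610 against OVCAR4, DESeq2), and all OVCAR3 family libraries lay at or below 0.506 TPM.

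ALDH1A1 (chromosome 9, 72900671 to 72953053), the cytosolic isozyme most often used as a stem-like marker, reached a mean of 10 TPM in 3 of 11 lines, those of the OVCAR3 family. OVCAR3 held 47.1, 51.1 and 52.7 TPM, OVCAR3 ResA 58.2, 55.9 and 82.3 TPM, and OVCAR3 ResB 15.02, 11.99 and 13.24 TPM. The ResB libraries lay below all others of the family. ALDH1A1 was 4.05-fold lower in OVCAR3 ResB than in OVCAR3 (log2 change -2.02 ± 0.35 SE, DESeq2 adjusted p = 3.4e-07) and 4.72-fold lower than in OVCAR3 ResA (-2.24 ± 0.38, DESeq2 adjusted p = 1.6e-07). The OVCAR3 ResA libraries were all above those of OVCAR3 in TPM, but the change did not pass the test (0.22 ± 0.13, DESeq2 adjusted p = 0.169).

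In the OVCAR4 family the resistant lines lay on either side of their parent. OVCAR4 held 1.46, 1.93 and 2.08 TPM of ALDH1A1, OVCAR4 ResA 7.02, 5.90 and 5.23 TPM, and OVCAR4 ResB had 0 counts in all 3 libraries. The 3 groups did not overlap. Against a floor of 3 counts a library, ALDH1A1 was at least 31.3-fold lower in OVCAR4 ResB than in OVCAR4 (DESeq2 adjusted p = 1.8e-09), and at least 71.3-fold lower than in OVCAR4 ResA (DESeq2 adjusted p = 3.0e-15). The second call was lost without OVCAR4 ResA replicate 1 (DESeq2 adjusted p = 0.102) and without replicate 2 (0.0767) or 3 (0.0532) of both lines, although the libraries of the 2 lines did not overlap in any of these settings. The higher level in OVCAR4 ResA than in OVCAR4 did not pass the test (log2 change 1.20 ± 0.49 SE, DESeq2 adjusted p = 0.0944), nor did it without OVCAR4 ResA replicate 1 (0.71 ± 0.44, DESeq2 adjusted p = 0.186).

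ALDH1A1 was low in the patient-derived lines. PEO1 held 1.49, 0.807 and 0.289 TPM and PEO4 0.163, 0.142 and 0.0603 TPM, without overlap and lower in PEO4 (log2 change -2.70 ± 0.79 SE, DESeq2 adjusted p = 0.00304), a call lost without replicate 1 (0.270) or replicate 2 (0.132). PEO6 held 0.394, 0.284 and 0.288 TPM, which overlapped with PEO1. In PEA1 and PEA2 the gene was at or under the floor of 3 counts, so that no fold is given. ALDH1A2 (chromosome 15, 57953429 to 58065711), the third enzyme of this group and the main source of retinoic acid in many embryonic tissues, reached a line mean of at most 0.288 TPM. It passed the test in PEO4 alone, with 0.355, 0.258 and 0.197 TPM against 0.0406, 0 and 0 TPM in PEO1 (DESeq2 adjusted p = 0.00359; 0.111 without replicate 2).

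The mitochondrial enzymes were ALDH2 (chromosome 12, 111766933 to 111817532), which oxidises the acetaldehyde made from ethanol, and ALDH1B1 (chromosome 9, 38392702 to 38398661), its close relative. ALDH2 was lower in both OVCAR3 derivatives. OVCAR3 held 10.2, 13.0 and 13.9 TPM, OVCAR3 ResA 2.56, 1.74 and 3.68 TPM, and OVCAR3 ResB 4.99, 3.47 and 3.91 TPM. Neither resistant line overlapped with the parent. The log2 fold changes were -2.38 ± 0.24 (SE, DESeq2 adjusted p = 9.1e-22) and -1.69 ± 0.41 (DESeq2 adjusted p = 0.000996; 0.163 without replicate 2 of both lines), and the difference between the resistant lines did not pass the test (0.71 ± 0.51, DESeq2 adjusted p = 0.430). Epithelial markers also moved in OVCAR3 ResA, where 5 of 8 were lower and 2 higher than in OVCAR3 without overlap, with a summed level of 2488 to 3125 TPM against 5524 to 7393 TPM. In OVCAR3 ResB 3 were lower and 1 higher, and the part of these markers in the ALDH results was not tested.

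In the OVCAR4 family ALDH2 was the leading member throughout. OVCAR4 held 51.5, 65.0 and 68.8 TPM, OVCAR4 ResA 70.5, 56.9 and 49.4 TPM, and OVCAR4 ResB 44.0, 43.4 and 44.6 TPM. OVCAR4 ResB lay below all libraries of the other 2 lines. The change in OVCAR4 ResB was -1.03 ± 0.36 (log2, SE, DESeq2 adjusted p = 0.0303), a call that was lost without replicate 2 (0.520) or replicate 3 (0.623). It was also lost with all libraries in edgeR (adjusted p = 0.106) and in limma (adjusted p = 0.362). That in OVCAR4 ResA did not pass the test with all libraries (-0.58 ± 0.38, DESeq2 adjusted p = 0.369) and passed without OVCAR4 ResA replicate 1 (-1.03 ± 0.20, DESeq2 adjusted p = 2.9e-06). In this family the TPM scale and the DESeq2 scale differ: the median of all genes was 0.44 higher in OVCAR4 ResA and 0.47 higher in OVCAR4 ResB than in OVCAR4 in log2 TPM, and fold changes from DESeq2 are relative to that shift. Mitochondrial ribosomal RNA, which counts toward the TPM total, took 5.18%, 14.8% and 12.0% of the OVCAR4 libraries, 9.23%, 2.02% and 2.09% of OVCAR4 ResA and 13.1%, 2.47% and 2.39% of OVCAR4 ResB, and its part in these changes was not tested.

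Within the patient-derived families ALDH2 moved in both directions. PEA1 held 59.3, 74.2 and 56.2 TPM and PEA2 26.1, 25.8 and 24.8 TPM, a lower level without overlap (log2 change -1.15 ± 0.25 SE, DESeq2 adjusted p = 2.3e-05). PEO1 held 18.4, 15.1 and 13.6 TPM and PEO4 32.97, 31.65 and 31.81 TPM, a higher level without overlap (1.05 ± 0.21, DESeq2 adjusted p = 2.4e-06). PEO6 held 11.2, 14.9 and 15.7 TPM, which overlapped with PEO1 (-0.23 ± 0.26, DESeq2 adjusted p = 0.515) and lay below PEO4 (-1.29 ± 0.30, DESeq2 adjusted p = 0.000312; 0.0838 without replicate 2).

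ALDH1B1 was above 10 TPM in all 11 lines and peaked in PEA1. PEA1 held 362, 193 and 366 TPM and PEA2 40.7, 34.4 and 29.8 TPM. The lowest PEA1 library was still above every PEA2 library, and the gene was 7.81-fold lower in PEA2 (log2 change -2.96 ± 0.23 SE, DESeq2 adjusted p = 4.2e-36). With ALDH1A3 higher and ALDH1B1 lower in PEA2, the leading member of this pair was a mitochondrial enzyme in PEA1 and a cytosolic one in PEA2. In the PEO family ALDH1B1 was lower in both resistant lines, with 54.4, 46.8 and 58.3 TPM in PEO1, 38.0, 37.8 and 30.5 TPM in PEO4 and 25.5, 24.3 and 45.5 TPM in PEO6. The changes were -0.55 ± 0.17 (DESeq2 adjusted p = 0.00448; 0.154 without replicate 1 and 0.0624 without replicate 2) and -0.82 ± 0.23 (DESeq2 adjusted p = 0.00187; 0.119 without replicate 2). In OVCAR3 ResA it was 0.33 ± 0.13 higher on the log2 scale (DESeq2 adjusted p = 0.0230; 0.0986 to 0.247 with any 1 replicate left out), with TPM values that overlapped with those of OVCAR3. ALDH1B1 and ALDH3A2 varied within lines together with mitochondrial ribosomal RNA: each had its lowest TPM in the library with the highest share of that RNA in 8 of 11 lines, and its part in their spread was not tested.

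**Figure D3:**
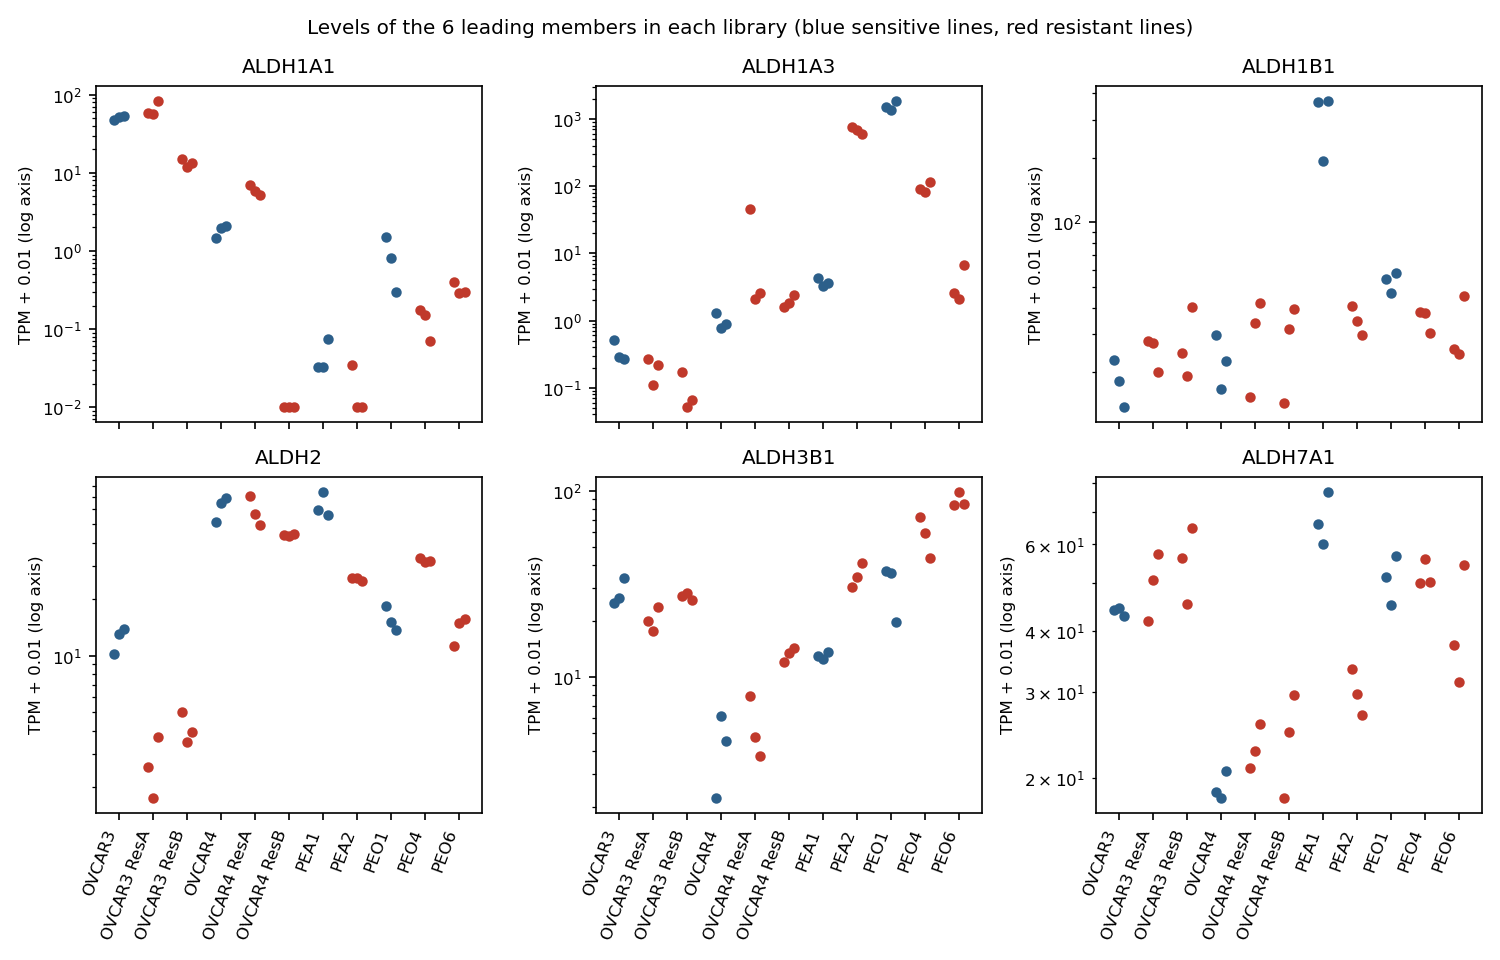
Level in each library (TPM + 0.01, log axes) of the 6 genes that led in at least 1 line, ALDH1A1, ALDH1A3, ALDH1B1, ALDH2, ALDH3B1 and ALDH7A1; points are the 3 libraries of each of the 11 lines, blue for sensitive and red for resistant lines. ALDH1A3 runs from under 1 TPM in the OVCAR3 family to 1839.9 TPM in PEO1, with 1 OVCAR4 ResA library at 46.6 TPM far above the other 2, whereas ALDH7A1 stays between 18.2 and 76.8 TPM.

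The enzymes of lipid-derived aldehydes were ALDH3A2, ALDH3B1 and ALDH3A1. ALDH3B1 (chromosome 11, 68008547 to 68029276), a membrane-anchored enzyme that acts on medium- and long-chain aldehydes, had its highest line means in PEO6 and PEO4. PEO1 held 37.1, 36.2 and 19.7 TPM, PEO4 72.0, 59.7 and 43.7 TPM, and PEO6 84.3, 98.6 and 84.9 TPM. Both resistant lines lay above PEO1 in every library, with log2 fold changes of 0.98 ± 0.20 (SE, DESeq2 adjusted p = 6.8e-06) and 1.56 ± 0.25 (DESeq2 adjusted p = 2.4e-09). In PEO6 ALDH3B1 was the leading member, whereas in PEO1 and PEO4 ALDH1A3 was.

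ALDH3B1 was also higher in PEA2, with 30.5, 34.6 and 41.0 TPM against 13.0, 12.4 and 13.6 TPM in PEA1 (log2 change 1.57 ± 0.25 SE, DESeq2 adjusted p = 2.2e-09). In the OVCAR4 family the 2 resistant lines parted, OVCAR4 ResB with 12.1, 13.4 and 14.4 TPM lying above OVCAR4 ResA with 7.84, 4.73 and 3.76 TPM (1.33 ± 0.26, DESeq2 adjusted p = 3.0e-06; 1.64 without OVCAR4 ResA replicate 1, DESeq2 adjusted p = 1.5e-08). Against OVCAR4, with 2.22, 6.17 and 4.52 TPM, OVCAR4 ResB did not pass the test (1.17 ± 0.47, DESeq2 adjusted p = 0.0664). Against the same parent OVCAR4 ResA did not pass with all libraries and passed without OVCAR4 ResA replicate 1, as lower (-1.06 ± 0.35, DESeq2 adjusted p = 0.00754). OVCAR3 ResA was lower than OVCAR3, with 19.96, 17.54 and 23.60 TPM against 24.8, 26.4 and 34.0 TPM (-0.61 ± 0.13, DESeq2 adjusted p = 1.6e-05). That call was lost without the replicate block (DESeq2 adjusted p = 0.0508) and in 1 fit of all 33 libraries (DESeq2 adjusted p = 0.193). ALDH3B1 carried fractional counts that it shares with its close paralog ALDH3B2, and the split between them is uncertain; the summed level of both was 35.2 TPM in OVCAR3, 32.2 TPM in PEO1 and 69.1 TPM in PEO4.

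ALDH3A2 (chromosome 17, 19648136 to 19677596), the fatty aldehyde dehydrogenase of the endoplasmic reticulum, was above 10 TPM in all 11 lines, and its line means spanned only 2.37-fold. It held 20.9, 19.5 and 21.8 TPM in PEO1, 45.1, 41.9 and 34.3 TPM in PEO4 and 40.4, 37.1 and 42.2 TPM in PEO6. Both resistant lines were above PEO1 in every library (log2 fold changes 0.99 ± 0.17 SE, DESeq2 adjusted p = 7.8e-08, and 0.92 ± 0.22, DESeq2 adjusted p = 0.000200). In OVCAR4 ResB the gene went the other way, with 9.07, 21.4 and 20.7 TPM against 43.5, 25.7 and 32.7 TPM in OVCAR4 and 25.3, 45.5 and 49.6 TPM in OVCAR4 ResA. It was lower than in OVCAR4 (-1.62 ± 0.35, DESeq2 adjusted p = 9.9e-05; 0.0535 without replicate 3) and than in OVCAR4 ResA (-1.30 ± 0.11, DESeq2 adjusted p = 1.5e-30; -1.27 without OVCAR4 ResA replicate 1, DESeq2 adjusted p = 3.0e-16).

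ALDH3A1 (chromosome 17, 19737984 to 19748298), which neighbours ALDH3A2 on chromosome 17 and is abundant in the cornea, was low throughout, with 0 counts in OVCAR4 ResB. It was higher in both PEO derivatives, with 1.82, 1.28 and 0.848 TPM in PEO4 and 0.962, 0.876 and 1.33 TPM in PEO6 against 0.116, 0.170 and 0.145 TPM in PEO1. The groups did not overlap, and the changes were 8.88-fold (DESeq2 adjusted p = 0.000675; 0.144 without replicate 1) and 7.75-fold (DESeq2 adjusted p = 0.00494; 0.0654 to 0.152 with any 1 replicate left out).

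ALDH7A1 (chromosome 5, 126541841 to 126595219), an enzyme of lysine breakdown, was the steadiest of the leading members. Its line means spanned 3.53-fold, with 44.0, 44.5 and 42.9 TPM in OVCAR3 and 56.3, 45.4 and 64.9 TPM in OVCAR3 ResB, where it was the leading member; its change there did not pass the test (log2 change 0.21 ± 0.31 SE, DESeq2 adjusted p = 0.857). It changed in 1 of 7 pairs: PEA1 held 66.1, 60.1 and 76.8 TPM and PEA2 33.5, 29.7 and 26.8 TPM, lower without overlap (-1.05 ± 0.22, DESeq2 adjusted p = 7.3e-06). ALDH1L1 (chromosome 3, 126103570 to 126197945), a cytosolic formyltetrahydrofolate dehydrogenase of folate metabolism, was at the other end of the scale, with a highest line mean of 1.11 TPM ± 0.716 (SD, n = 3) in PEO6. It passed the test in OVCAR3 ResA, with 0.525, 0.211 and 0.229 TPM against 3, 2 and 2 counts in the OVCAR3 libraries (DESeq2 adjusted p = 0.0322; 0.125 to 0.435 with any 1 replicate left out).

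Resistant lines of one family were compared with each other to ask whether they shared their aldehyde dehydrogenase changes. Of 29 tested combinations, 7 changed (background 21.4%), and the groups did not overlap in 13 of 30 (background 25.9%). OVCAR4 ResB differed from OVCAR4 ResA in 4 members (background 32.8%), namely ALDH1A1, ALDH2 and ALDH3A2, which were lower, and ALDH3B1, which was higher. Without OVCAR4 ResA replicate 1, ALDH3A2 and ALDH3B1 remained (background 25.4%), and ALDH2 did not (-0.44 ± 0.13, DESeq2 adjusted p = 0.00296 with that library; -0.36, adjusted p = 0.0793 without it). PEO6 differed from PEO4 in 2 members (background 18.2%), ALDH1A3 and ALDH2, and OVCAR3 ResB from OVCAR3 ResA in 1 (background 13.5%), ALDH1A1.

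Differences between families were tested on all 33 libraries as differences of 2 changes, for the 18 pairings of resistant lines from different families. Of the 180 combinations with a member, 90 passed (background 32.7%), and 95 passed without OVCAR4 ResA replicate 1. ALDH1A3 differed in 15 of 18 pairings (18 without that library), ALDH2 in 12 (11 without it) and ALDH3A2 in 11 (11 without it), against 4 for ALDH1L1 and 6 for ALDH7A1. For ALDH1A3, the change in PEA2 exceeded that in PEO4 by 11.62 ± 0.95 and that in PEO6 by 16.34 ± 0.95 (log2, SE, DESeq2 adjusted p = 1.3e-32 and 6.3e-64). For ALDH2 the change in PEA2 was 2.21 ± 0.38 below that in PEO4 (DESeq2 adjusted p = 5.6e-08), and for ALDH3A2 that in OVCAR4 ResB was 2.54 ± 0.36 below that in PEO4 (DESeq2 adjusted p = 5.2e-11).

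With the line as the unit, counts of the 3 replicates were summed and the 7 resistant lines were compared with the 4 sensitive ones, with family in the model. None of the 10 members passed the test in DESeq2 (0 of 10; background 0.286%, 68 of 23782 genes), and edgeR called 0 of 17110 genes, with 790 at an unadjusted p under 0.05. In DESeq2 3 members had an unadjusted p under 0.05. The estimate for ALDH2 was negative (log2 change -0.93 ± 0.45 SE, unadjusted p = 0.0379, adjusted p = 0.773 in DESeq2), and the estimate was above 0 in 1 of 7 pairs. Those for ALDH1L1 (1.68 ± 0.69, unadjusted p = 0.0148, adjusted p = 0.546 in DESeq2) and ALDH1A2 (1.84 ± 0.93, unadjusted p = 0.0467, adjusted p = 0.821 in DESeq2) were positive, at levels of about 1 TPM or less. Without OVCAR4 ResA replicate 1 the estimate for ALDH1A3 was -1.42 ± 1.15 (unadjusted p = 0.217 in DESeq2), and again none of the 10 passed, with 3 at an unadjusted p under 0.05. Without the PEO family 2 members passed, ALDH2 (-1.35, DESeq2 adjusted p = 0.0348) and ALDH1L1 (2.81, DESeq2 adjusted p = 0.0445), beside 199 of 16710 genes. Without the OVCAR3, OVCAR4 or PEA family 0 members passed in DESeq2, beside 96 of 23965, 77 of 23857 and 73 of 19210 genes. In that order, 3, 0 and 2 members had an unadjusted p under 0.05.

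The other 9 ALDH genes of the tables gave 23 changes in 60 tested combinations over the pairs, 11 higher and 12 lower, beside the same background of 29.8%, and 24 without OVCAR4 ResA replicate 1 (12 higher, 12 lower). ALDH1L2, the mitochondrial counterpart of ALDH1L1, was lower in 5 of 7 pairs and higher in 0, by -3.54 ± 0.34 in OVCAR4 ResA (-3.25 ± 0.22 without replicate 1 of that line), -2.71 ± 0.20 in PEO4, -2.51 ± 0.27 in PEO6, -1.62 ± 0.42 in OVCAR4 ResB and -1.59 ± 0.23 in OVCAR3 ResA (log2, SE). ALDH3B2 was higher in 3 pairs, by 3.13 ± 0.28 in PEO4, 2.997 ± 0.372 in PEO6 and 1.44 ± 0.49 in OVCAR4 ResB, and lower in OVCAR3 ResA (-1.58 ± 0.23). ALDH9A1, which oxidises aminoaldehydes, was higher in PEO6 (0.56 ± 0.23), PEO4 (0.49 ± 0.17) and OVCAR3 ResA (0.29 ± 0.12) and lower in PEA2 (-0.59 ± 0.23). ALDH18A1, which makes a precursor of proline and is named after its values were seen, changed in 0 of 7 pairs, at line means of 80.7 TPM in OVCAR4 ResA and 109.9 TPM in OVCAR4 ResB, above ALDH2 in both. In OVCAR4 ResB ALDH9A1, with 76.8 TPM, was also above ALDH2, with 44.0 TPM.

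Genes around the retinoic acid step changed in 68 of 134 tested combinations, 32 higher and 36 lower, for a list of 22 genes and beside the background of 29.8%, and in 73 without OVCAR4 ResA replicate 1 (33 higher, 40 lower). By role, 25 of 47 combinations changed for retinoid supply, 13 of 19 for cytosolic binding, 10 of 33 for the receptors, 6 of 14 for clearance and 14 of 21 for target genes. CRABP2, which carries retinoic acid to its receptors, changed in 6 of 7 pairs: higher in PEO4 (log2 change 2.75 ± 0.16 SE) and PEO6 (3.69 ± 0.21), OVCAR4 ResA (1.83 ± 0.38, or 1.40 ± 0.19 without its replicate 1) and OVCAR4 ResB (1.33 ± 0.39), and lower in OVCAR3 ResA (-1.27 ± 0.11) and OVCAR3 ResB (-1.48 ± 0.45). Its mean level rose from 114 TPM in PEO1 to 749 TPM in PEO4 and 1496 TPM in PEO6, the lines in which ALDH1A3 was lower. STRA6, the membrane receptor that takes up retinol, fell with ALDH1A3 in this family, from 39.7 TPM in PEO1 to 0.903 TPM in PEO4 and 0.543 TPM in PEO6 (-5.51 ± 0.25 and -6.25 ± 0.29). Over the 7 pairs STRA6 was higher in 2 and lower in 3. Without OVCAR4 ResA replicate 1 it was higher in OVCAR4 ResA (3.79 ± 1.03, DESeq2 adjusted p = 0.000989), where ALDH1A3 did not pass (0.73 ± 0.51).

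The 3 target genes on the list were TGM2, RARRES1 and RARRES3. TGM2, a transglutaminase induced by retinoic acid, was higher in PEA2 (log2 change 1.98 ± 0.26 SE; 227 TPM in PEA1 and 774 TPM in PEA2) and lower in PEO4 (-4.22 ± 0.22) and PEO6 (-2.62 ± 0.25), the signs of ALDH1A3 in these pairs. RARRES1, which is named after its values were seen, had the same signs, higher in PEA2 (4.20 ± 0.58; 0.248 TPM in PEA1 and 4.47 TPM in PEA2) and lower in PEO4 (-5.14 ± 0.22) and PEO6 (-4.69 ± 0.27), with 197 TPM in PEO1, 5.54 TPM in PEO4 and 8.19 TPM in PEO6. RARRES3, another retinoid-responsive gene, was higher in PEO4 (2.15 ± 0.25) and PEO6 (2.35 ± 0.29), the sign opposite to ALDH1A3, and did not pass the test in PEA2 (-0.67 ± 0.43, DESeq2 adjusted p = 0.192). Over the 7 pairs, TGM2 was higher in 3 and lower in 2. RARRES1 was higher in 1 and lower in 3, and RARRES3 higher in 4 and lower in 1. Without OVCAR4 ResA replicate 1, TGM2 (1.31 ± 0.34) and RARRES3 (3.13 ± 1.25) were higher in OVCAR4 ResA (DESeq2 adjusted p = 0.000489 and 0.0307). ALDH1A3 did not pass there (0.73 ± 0.51). Of the 7 alcohol dehydrogenase genes, ADH5, named after its values were seen, was present in all lines, at line means of 58.7 to 292 TPM, and was lower in PEA2 (-0.89 ± 0.23). In 36 of 49 combinations of an alcohol dehydrogenase gene and a pair both lines were at or under the floor.

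The genes whose pattern over the 11 lines was most like that of each leading member were taken by Pearson's r of mean log2(TPM + 1), among 13178 genes that reached 5 TPM in at least 1 line. These are descriptions over 11 lines that share origins in 4 families. For ALDH1A3 they were IL23A (0.985), KCNC4 (0.978) and C3orf67 (0.947), for ALDH1A1 MAP4K1 (0.960), URI1 (0.958) and SNAR-G1 (0.955), and for ALDH1B1 DOCK2 (0.976), NIPAL4 (0.969) and EGFLAM (0.968). For ALDH2 they were C14orf159 (0.932), H2AFV (0.929) and HMGB1 (0.925), for ALDH3B1 RPGR (0.944), DAK (0.942) and GTF2H2B (0.935), and for ALDH7A1 ZC4H2 (0.954), SUFU (0.944) and ZNF200 (0.941).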

How the data were processed

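RNA-seq of polyadenylated RNA (KAPA mRNA HyperPrep libraries) from 33 libraries of 11 lines was used. The authors deposited expected counts and TPM per gene, which they made with the nf-core RNA-seq workflow (alignment to GRCh38, quantification with salmon) after conversion to FASTQ with DRAGEN; the annotation release and the strand setting were not given in the sources used here. Of the deposited expected counts, 88.4% were whole numbers, and all were rounded before testing. TPM was used as the authors deposited it. Of 29744 genes, 4956 had 0 counts throughout, and 114 rows carried a symbol that stood on more than 1 row, so rows were followed by identifier.

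Each comparison of 6 libraries was fitted in DESeq2 1.42.0 (R 4.3.3) with line and replicate number, median-of-ratios size factors, no filter before fitting and Benjamini-Hochberg adjustment over all genes, and genes were called at adjusted p below 0.05. The script was tested on simulated data. Whether replicate numbers paired the samples was checked by correlating deviations from line means: every pair exceeded 0.1 only in OVCAR3 ResA against OVCAR3 (0.877, 0.398 and 0.767) and OVCAR4 ResB against OVCAR4 ResA (0.875, 0.838 and 0.753). Line-level and between-family tests are described with their results. Shares are each member's part of the summed TPM of the 10 members. A floor of 3 counts a library stands for the upper limit that 0 counts allow, and covers counting error only.

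All 10 members are named. From the lists of 9 other ALDH genes and 22 retinoid genes, at most 4 genes called in most pairs are given by value, and from 7 alcohol dehydrogenase genes at most 2; ALDH18A1, RARRES1 and ADH5 were added after their values were seen. For each leading member the 3 most similar genes are given. The members and lists were chosen with earlier results of these data known. Alternatives were edgeR 4.0.16 (quasi-likelihood), TMM size factors, a count filter (at least 10 counts in 3 libraries), limma 3.58.1 on log2(TPM + 1), 1 fit of all libraries, no replicate block, and each replicate or family left out. Leaving out OVCAR4 ResA replicate 1 alone was added after seeing the data. Promoters and positions come from RefSeq (GRCh38.p14); the genome of another build was not used.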

Additional observations from a re-analysis of the deposited data

Results flagged for a closer look

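Resistant lines of one family differed in 7 tested comparisons of a member (DESeq2 adjusted p below 0.05, 3 libraries a line). ALDH1A1 differed by -2.24 on the log2 scale between OVCAR3 ResB and OVCAR3 ResA. Between OVCAR4 ResB and OVCAR4 ResA, ALDH1A1 differed by -10.22 (a fitted value against 0 counts, and so no bound), ALDH2 by -0.44, ALDH3A2 by -1.30 and ALDH3B1 by 1.33. Between PEO6 and PEO4, ALDH1A3 differed by -4.89 and ALDH2 by -1.29.

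Changes also differed between families. Of 18 tests of a difference between the changes of 2 resistant lines from different families, 15 passed for ALDH1A3, 12 for ALDH2, 11 for ALDH3A2, 10 for ALDH1A1, 10 for ALDH1B1, 9 for ALDH3A1, 8 for ALDH3B1, 6 for ALDH7A1, 5 for ALDH1A2 and 4 for ALDH1L1, beside a background of 32.7% over all genes. Without OVCAR4 ResA replicate 1 these were 18 for ALDH1A3, 11 for ALDH2, 11 for ALDH1B1 and 10 for ALDH3B1, with the same counts for the other 6 members. Pairs of one family share their sensitive line, so these tests are not independent.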

How the results depend on the processing

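Depth limited ALDH1A2, ALDH1L1 and ALDH3A1, which lay near the floor of 3 counts in many libraries. Of 35 changes of a member called in the pairs and between resistant lines, 19 kept the call under every alternative that gave an adjusted p and 16 lost it under at least 1; no called change turned its direction. Of 877 alternative values, 780 kept direction and side of the threshold, 42 lost the call, 26 gained it and 29 were uncalled with the other sign. Where the count of changed members moved, the cause was not tested.

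In OVCAR3 ResA against OVCAR3, 2 members were called without the replicate block and 2 in the fit of all 33 libraries, against 4. Over all genes these fits called 5456 of 18148 and 4950 of 18480, against 8146 of 18160. Without the block ALDH1B1 (DESeq2 adjusted p = 0.268) and ALDH3B1 (0.0508) lost their calls, and in OVCAR4 ResB against OVCAR4 ResA so did ALDH2 (0.386). PEO6 against PEO4 gave 4 without the block, against 2, beside 4563 of 17540 genes without it and 3043 of 16728 with it. The block made 28 calls over the pairs and 27 were made without it. Outside OVCAR3 ResA against OVCAR3 and OVCAR4 ResB against OVCAR4 ResA, pairing by replicate number was neither shown nor excluded. In OVCAR4 ResA against OVCAR4 the correlations were -0.662, -0.54 and -0.331. There 1784 of 14993 genes were called with the block and 3462 of 16109 without it. With all libraries in 1 fit, 5 members were called in OVCAR3 ResB, 3 in OVCAR4 ResA and 7 in OVCAR4 ResB. The calls over all genes rose too, to 3058 of 18480, 4531 of 17536 and 5704 of 18480. In the main fits they were 1255 of 16352, 1784 of 14993 and 2853 of 15968. limma called 1 in OVCAR3 ResB, 0 in OVCAR4 ResA, 1 in OVCAR4 ResB and 5 in PEO4. Over all genes limma called 463 of 13520, 297 of 12869, 619 of 12947 and 4350 of 13368 in these pairs. In limma ALDH2 in OVCAR3 ResB (adjusted p = 0.0967) and ALDH3A2 in OVCAR4 ResB (adjusted p = 0.229) lost their calls. edgeR called 0 in OVCAR4 ResA (ALDH1A3 adjusted p = 0.314), and there edgeR and limma each had 2 members at an unadjusted p under 0.05. Over all genes edgeR called 219 of 14259 in that pair. Without OVCAR4 ResA replicate 1, 2 members were called in OVCAR4 ResA against OVCAR4 and 2 in OVCAR4 ResB against OVCAR4 ResA (backgrounds 42.5% and 25.4%). Without the PEO family 2 members were called at the level of lines, beside 199 of 16710 genes, and 0 without any other family.

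Each replicate was left out in turn, and OVCAR4 ResA replicate 1 was also left out alone, with comparisons that lack this line kept as in the main fits. Over these settings the calls ranged from 20 to 29 over the pairs and from 4 to 8 between resistant lines. Singly they were OVCAR3 ResA 2 to 3, OVCAR3 ResB 1 to 3, OVCAR4 ResA 1 to 2, OVCAR4 ResB 1 to 3, PEA2 5 to 5, PEO4 5 to 8, PEO6 3 to 4, OVCAR3 ResB against OVCAR3 ResA 1 to 3, OVCAR4 ResB against OVCAR4 ResA 2 to 3, and PEO6 against PEO4 1 to 2. At the level of lines 0 members were called in DESeq2. There, 2 had an unadjusted p under 0.05 with each replicate left out in turn, and 3 without OVCAR4 ResA replicate 1 alone.

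With all 19 ALDH genes as the denominator, which lowers shares by construction, the member that led among the 10 held 16.4% in OVCAR3, 19.4% in OVCAR3 ResA, 20.5% in OVCAR3 ResB, 22.4% in OVCAR4, 16.5% in OVCAR4 ResA, 11.9% in OVCAR4 ResB, 45.8% in PEA1, 69.9% in PEA2, 82.9% in PEO1, 19.9% in PEO4 and 22.8% in PEO6. ALDH18A1 then led in OVCAR4 ResA (22.2%) and OVCAR4 ResB (28.1%). No other setting changed the leading member.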
